A study of Rattus norvegicus with 48 samples.

Results

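Bile acid synthesis and uptake were followed through 7 genes, Cyp7a1, Cyp8b1, Cyp27a1, Baat, Slc10a1, Nr1h4 and Nr0b2, out of 14217 genes that the array measured with a probe set of a single gene symbol. Each of the 7 was found by its symbol in the platform annotation, and each had exactly 1 probe set carrying that symbol alone. Transcripts were measured in male Sprague-Dawley rats that had received RDX, a nitramine explosive, once by mouth in a gel capsule, at doses below those that cause seizures. The livers formed 8 groups of 3 arrays: 18 mg/kg RDX with tissue taken at 0, 4, 24 and 48 h, and 3 mg/kg RDX with tissue taken at the same times. The rats of every group were housed in pairs with food and water freely available. The labels name no vehicle arm. Each later group was therefore set against 0 h within its dose, and the 0 h rats belong to a dosed arm as well. They state neither the clock time of dosing nor how many rats stand behind the 3 arrays of a group, so p-values measure only the spread between arrays, which may be technical.

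Bile acids are detergents that hepatocytes make from cholesterol and that are secreted into bile, reabsorbed in the intestine and taken back up by the liver. Cyp7a1 is the rate-limiting enzyme of the classic route of synthesis. Cyp8b1 sets the share of cholic acid among the products, Cyp27a1 is the mitochondrial enzyme that oxidises the sterol side chain and opens the alternative route, and Baat joins finished bile acids to taurine or glycine. Slc10a1, also called NTCP, is the sodium-dependent transporter that brings bile acids from portal blood into hepatocytes. Nr1h4 encodes FXR, the nuclear receptor that bile acids activate, and Nr0b2 encodes SHP, a corepressor that FXR induces and that lowers Cyp7a1 transcription.

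For each of the 7 transcripts every liver array read above every cortex array. The mean of 6 hepatocyte markers lay between 10.7 and 13.53 on the log2 scale across the 24 liver arrays. Cyp7a1 ranged from 9.48 to 11.73 in liver and between 4.04 and 4.93 in the 24 cortex arrays. Cyp27a1, which other tissues also use, ranged from 8.8 to 12.32 in liver and between 6.97 and 7.84 in cortex. These log2 values are comparable between arrays for 1 gene and do not rank the genes against each other.

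Values were compressed in 2 of the 24 liver arrays, replicate 1 of 18 mg/kg at 4 h and replicate 2 of 3 mg/kg at 0 h. The SD over all probe sets was 1.389 in the array of 18 mg/kg and 1.499 in that of 3 mg/kg, while the other 22 arrays lay between 1.828 and 2.086. Among the 2295 probe sets that averaged at least 10, the median departure from the other arrays of the group was -1.849 in the array of 18 mg/kg and -0.971 in that of 3 mg/kg. The hepatocyte marker mean was 10.7 in the array of 18 mg/kg and 12.2 in that of 3 mg/kg, and the gap between 3' and 5' actin probe sets, which follows RNA quality, was 0.617 in the array of 18 mg/kg and 3.29 in that of 3 mg/kg, against 2.756 to 4.379 in the other 22. Since 1 of these arrays belongs to the 0 h group of 3 mg/kg, changes from that group are also given without both.

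Of 84 combinations of a gene and a contrast (7 genes in 12 contrasts), 2 passed an adjusted p of 0.05 in limma, and both lay in the contrast of 48 h against 0 h after 3 mg/kg. Cyp27a1 was 2.79-fold and Slc10a1 3.04-fold higher at 48 h than at 0 h in that arm. Both calls were lost without the compressed 0 h array. No gene of the 7 passed in any of the other 11 contrasts, nor in an F test of whether the time courses of the doses differed or of any difference among the 8 groups, in which the smallest adjusted p was 0.24 (Cyp27a1). The levels are from whole liver, in which fewer cells of a type and less RNA per cell cannot be told apart.

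**Figure D1:**
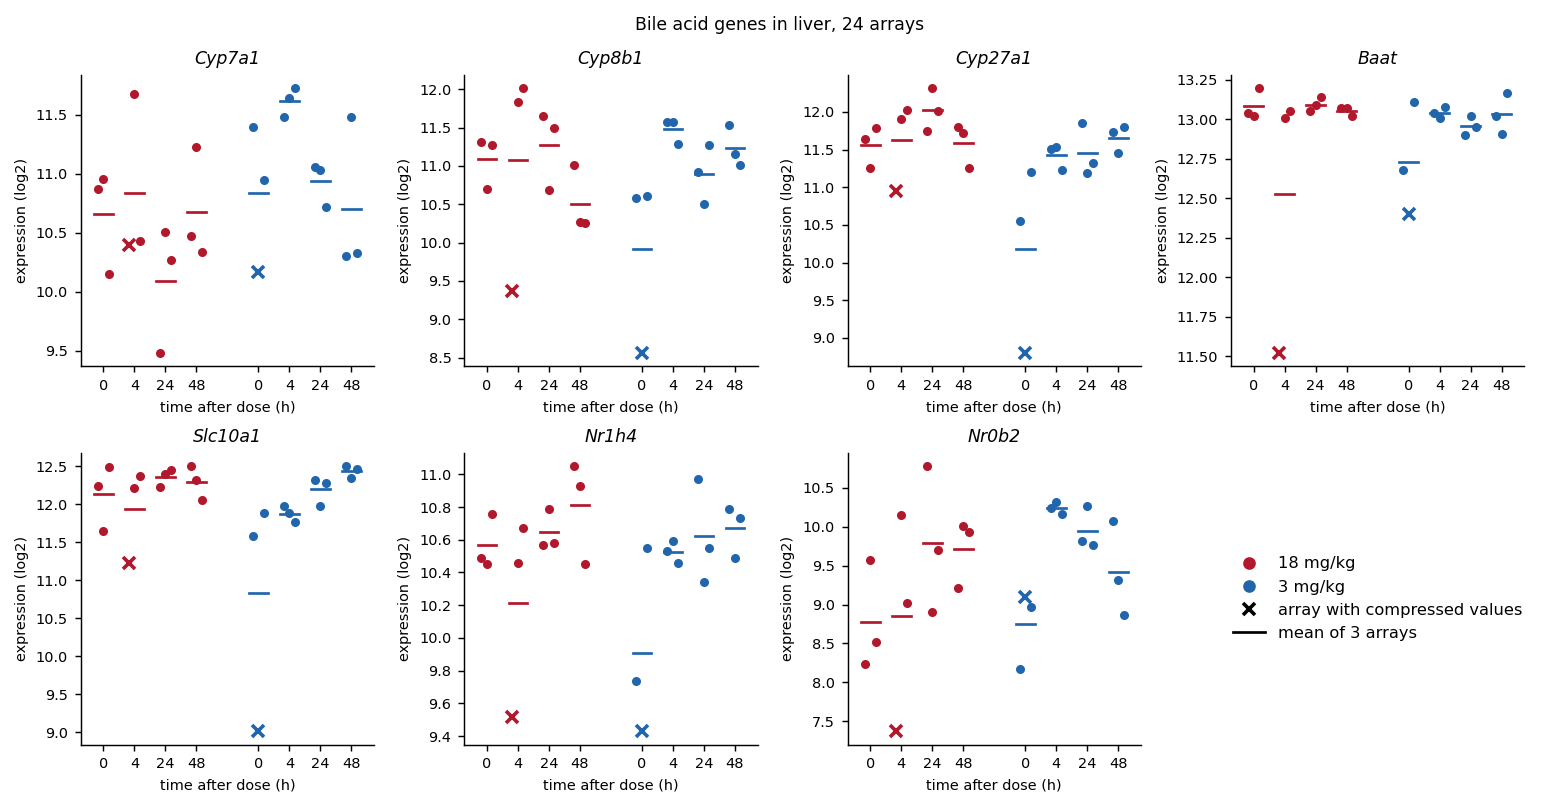
Expression (log2, vertical axis) of the 7 genes in each of the 24 liver arrays, by time after dosing in h (horizontal axis), with 18 mg/kg on the left and 3 mg/kg on the right of each panel; points are arrays, crosses are the 2 arrays with compressed values and bars are means of 3 arrays. The lowest Slc10a1 value, 9.01, and the lowest Cyp27a1 value, 8.8, are both from the cross in the 0 h group of 3 mg/kg.

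Among the synthesis enzymes, Cyp27a1 read 11.73, 11.45 and 11.8 at 48 h after 3 mg/kg, against 10.55, 8.8 and 11.2 at 0 h. Every 48 h array lay above every 0 h array, and the 0 h array at 8.8 is the compressed one. The log2 change was 1.48 ± 0.40 (SE, 95% interval 0.65 to 2.31, limma adjusted p = 0.032). In this comparison 9.34% of all 31042 probe sets passed in either direction and 6% passed as higher, against 2 of the 7 genes, both higher. Without the 2 compressed arrays the change was 0.79 ± 0.24 (adjusted p = 0.063), and the 0 h mean was 10.87 over 2 arrays. At the earlier times Cyp27a1 read 11.51, 11.53 and 11.23 at 4 h and 11.85, 11.19 and 11.32 at 24 h, with changes of 1.24 ± 0.40 (adjusted p = 0.26) and 1.27 ± 0.40 (adjusted p = 0.11) relative to 0 h, where the mean was 10.18 ± 1.2 (SD, n = 3). They were 0.55 ± 0.24 at 4 h (adjusted p = 0.47) and 0.58 ± 0.24 at 24 h (adjusted p = 0.27) without the compressed arrays.

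After 18 mg/kg, Cyp27a1 read 11.64, 11.26 and 11.79 at 0 h, 10.95, 11.91 and 12.02 at 4 h, 11.75, 12.32 and 12.01 at 24 h, and 11.8, 11.72 and 11.26 at 48 h. With all arrays each later group overlapped its 0 h group, and the changes lay between 0.03 and 0.47 with an SE of 0.40. The 4 h value of 10.95 is from the compressed array. Without the compressed arrays the 4 h change was 0.40 ± 0.24 (adjusted p = 0.96). At 0 h the 18 mg/kg arrays all lay above the 3 mg/kg arrays, by 1.38 ± 0.40 (adjusted p = 0.11). That difference was 0.69 ± 0.24 (adjusted p = 0.20) without the compressed arrays.

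Slc10a1, the uptake transporter, read 12.5, 12.34 and 12.46 at 48 h after 3 mg/kg, against 11.58, 9.01 and 11.88 at 0 h. The groups did not overlap, and the low 0 h value again came from the compressed array. The change was 1.61 ± 0.46 (95% interval 0.65 to 2.56, adjusted p = 0.038), and 0.70 ± 0.21 (adjusted p = 0.055) without the compressed arrays. Within the 3 mg/kg arm the means were 10.83 ± 1.6 at 0 h, 11.88 ± 0.099 at 4 h, 12.19 ± 0.18 at 24 h and 12.43 ± 0.084 at 48 h (SD, n = 3 each). The 24 h arrays (12.32, 11.98 and 12.28) all lay above the 4 h arrays (11.97, 11.88 and 11.77), with a change of 0.32 ± 0.46 (adjusted p = 1). Setting 24 h against 0 h gave 1.37 ± 0.46 (adjusted p = 0.13) and 4 h against 0 h gave 1.05 ± 0.46 (adjusted p = 0.33). Without the compressed arrays, which left a 0 h mean of 11.73 over 2 arrays, the changes were 0.46 ± 0.21 at 24 h (adjusted p = 0.30) and 0.14 ± 0.21 at 4 h (adjusted p = 0.87).

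Slc10a1 in the 18 mg/kg arm read 12.24, 11.65 and 12.49 at 0 h, 11.22, 12.21 and 12.37 at 4 h, 12.22, 12.39 and 12.45 at 24 h, and 12.5, 12.32 and 12.06 at 48 h. The lowest of these 12 values is from the compressed 4 h array. No later group was clear of its 0 h group, and the changes ranged from -0.19 to 0.23 with an SE of 0.46. The 95% intervals of the 3 changes, which together span -1.15 to 1.18, do not exclude changes of about the size seen without the compressed arrays after 3 mg/kg.

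Both calls also depended on other single arrays. Leaving out 1 array of the contrast at a time gave changes of 0.79 to 1.99 for Cyp27a1 (adjusted p 0.0023 to 0.25) and 0.70 to 2.13 for Slc10a1 (adjusted p 0.004 to 0.26). Without replicate 1, 2 or 3 of the 48 h group the adjusted p was 0.088, 0.058 and 0.13 for Cyp27a1 and 0.098, 0.073 and 0.13 for Slc10a1, although the changes stayed between 1.41 and 1.65. Replicate 2 of that 48 h group also had a pancreas marker mean of 9.94, against 5.61 to 6.163 in the other 23 liver arrays. Its part in the result was not tested beyond the value without it.

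**Figure D2:**
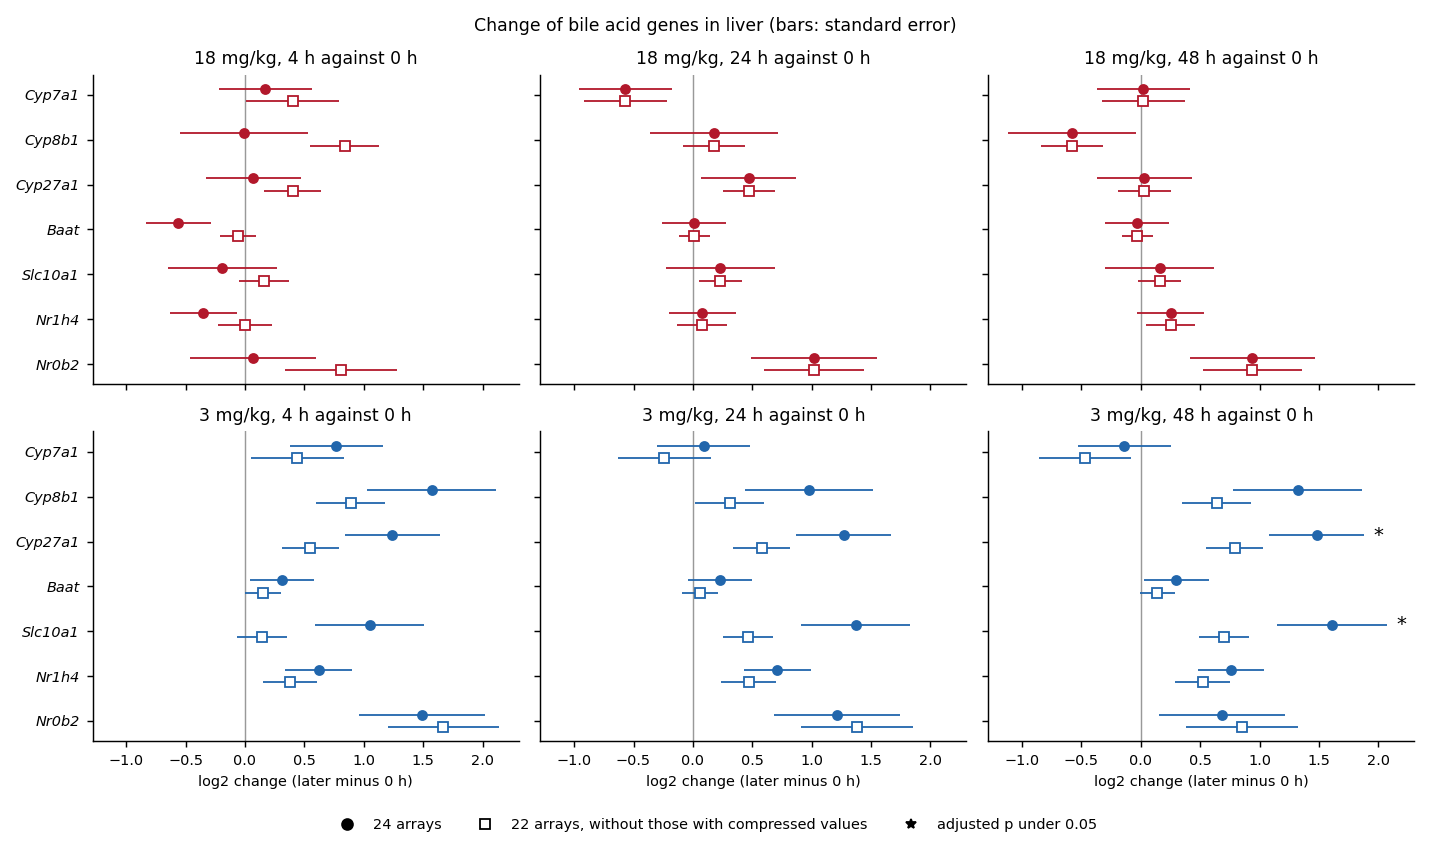
Log2 change from 0 h (horizontal axis) for each gene at 4, 24 and 48 h, with 18 mg/kg in the upper row and 3 mg/kg in the lower row; filled circles use 24 arrays, open squares leave out the 2 compressed arrays, bars are standard errors and asterisks mark an adjusted p under 0.05. Cyp27a1 and Slc10a1 at 48 h after 3 mg/kg carry the 2 asterisks at 1.48 and 1.61, and their squares lie at 0.79 and 0.70.

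The promoters of the 2 genes that passed with all arrays are shown with their nuclear receptor core hexamer, AGGTCA or its reverse complement TGACCT, in capitals. A shared cause of their changes was not tested. They run from 250 bases before to 50 bases after the RefSeq start on assembly GRCr8, each written 5′ to 3′ on the gene's strand. Cyp27a1 lies at chr9:83713282-83713581 on the plus strand and Slc10a1 at chr6:106357895-106358194 on the minus strand.
Cyp27a1: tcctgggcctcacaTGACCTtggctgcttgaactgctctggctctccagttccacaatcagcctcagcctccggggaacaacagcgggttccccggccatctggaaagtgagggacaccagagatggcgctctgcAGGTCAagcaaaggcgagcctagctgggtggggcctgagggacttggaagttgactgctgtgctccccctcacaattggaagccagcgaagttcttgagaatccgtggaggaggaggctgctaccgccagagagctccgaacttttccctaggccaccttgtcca
Slc10a1: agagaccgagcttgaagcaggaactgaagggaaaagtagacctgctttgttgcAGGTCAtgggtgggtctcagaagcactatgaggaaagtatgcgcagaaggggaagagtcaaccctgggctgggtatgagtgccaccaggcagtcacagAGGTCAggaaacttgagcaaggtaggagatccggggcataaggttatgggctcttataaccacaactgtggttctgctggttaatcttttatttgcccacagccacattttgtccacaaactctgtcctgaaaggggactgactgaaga
Each of these windows held 2 copies of the hexamer on either strand. Of 33469 rat promoters of the same length 16.2% held at least 1, and the share that held 2 was not computed. The windows of Cyp8b1, Nr0b2 and Baat held 0. The HNF1 core GTTAAT (or ATTAAC) occurred once, in Slc10a1, and stands in 7.45% of all promoters. The E-box CACGTG occurred once, in Nr0b2, and stands in 6.42%. The matches do not overlap each other, 5 of the 7 genes were matched in the promoter table, and a match describes the letters of the window, not a bound site.

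Cyp8b1, the enzyme of cholic acid synthesis, read 11.54, 11.15 and 11.01 at 48 h after 3 mg/kg, against 10.58, 8.56 and 10.61 at 0 h. All 48 h arrays were above all 0 h arrays, with the compressed array lowest, and the change of 1.32 ± 0.54 did not pass (adjusted p = 0.10), nor did 0.64 ± 0.29 (adjusted p = 0.18) without the compressed arrays. Cyp8b1 was thus, with Cyp27a1 and Slc10a1, 1 of 3 genes whose groups did not overlap upward in this comparison, where 16.9% of all probe sets did the same. The 4 h arrays (11.58, 11.58 and 11.29) also lay above 0 h, by 1.57 ± 0.54 (adjusted p = 0.27), and by 0.89 ± 0.29 (adjusted p = 0.31) without the compressed arrays. At 24 h after 3 mg/kg the values were 10.92, 10.51 and 11.27, all below those at 4 h.

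After 18 mg/kg, Cyp8b1 read 11.31, 10.7 and 11.27 at 0 h, 9.37, 11.84 and 12.02 at 4 h, 11.65, 10.68 and 11.5 at 24 h, and 11.01, 10.27 and 10.25 at 48 h. The 4 h change was -0.01 ± 0.54 with all arrays and 0.84 ± 0.29 (adjusted p = 0.66) without the compressed array, which read 9.37. At 48 h the change was -0.58 ± 0.54 after 18 mg/kg (adjusted p = 1), against 1.32 ± 0.54 after 3 mg/kg. The difference between those changes, 18 minus 3 mg/kg, was -1.90 ± 0.76 (adjusted p = 0.22), and -1.22 ± 0.39 (adjusted p = 0.13) without the compressed arrays.

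Cyp7a1, the rate-limiting enzyme, read 11.48, 11.64 and 11.73 at 4 h after 3 mg/kg, against 11.4, 10.17 and 10.95 at 0 h. The 4 h arrays lay just above the highest 0 h array, and the change was 0.77 ± 0.39 (95% interval -0.03 to 1.58, adjusted p = 0.36), or 0.44 ± 0.39 (adjusted p = 0.76) without the compressed arrays. Values of 11.06, 11.03 and 10.72 at 24 h all lay below those at 4 h, a change of -0.68 ± 0.39 (adjusted p = 1). At 48 h the arrays read 10.3, 11.48 and 10.33, with the highest value in the array that carried pancreas transcripts, and the change from 0 h was -0.47 ± 0.39 (adjusted p = 0.48) without the compressed arrays.

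In the 18 mg/kg arm Cyp7a1 read 10.87, 10.96 and 10.15 at 0 h, 10.4, 11.68 and 10.43 at 4 h, 9.48, 10.51 and 10.27 at 24 h, and 10.47, 11.23 and 10.34 at 48 h. The 24 h group had the lowest mean of all 8 groups, 10.09 ± 0.54 (SD, n = 3), and its arrays all lay below those of 3 mg/kg at 24 h, which averaged 10.94 ± 0.19. That difference of -0.85 ± 0.39 (95% interval -1.65 to -0.04) did not pass after adjustment (adjusted p = 1). The change to 24 h within the 18 mg/kg arm was -0.57 ± 0.39 relative to 0 h (adjusted p = 1). Ordered by mean, the groups other than 3 mg/kg at 4 h (11.61 ± 0.13) and 18 mg/kg at 24 h stood between 10.66 and 10.94, within the SD of 0.52 that arrays of 1 group showed.

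Baat, the conjugating enzyme, varied least. Its arrays outside the compressed ones lay between 12.68 and 13.2, and the within-group SD was 0.34 over 24 arrays and 0.11 over the 22. It read 11.52, 13.01 and 13.05 at 4 h after 18 mg/kg, against 13.04, 13.02 and 13.2 at 0 h, and the lowest is the compressed array. The change of -0.56 ± 0.27 (adjusted p = 0.44) became -0.06 ± 0.15 without it. After 3 mg/kg the changes from 0 h lay between 0.23 and 0.31 with all arrays and between 0.06 and 0.15 without the compressed ones, and did not pass.

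Nr0b2, the corepressor SHP, read 10.24, 10.32 and 10.16 at 4 h after 3 mg/kg, against 8.17, 9.1 and 8.97 at 0 h. Its 4 h arrays stood close together, all above the highest 0 h array, which at 9.1 is the compressed one. The change was 1.49 ± 0.53 (2.82-fold, 95% interval 0.40 to 2.59) and did not pass the threshold over all probe sets (adjusted p = 0.28), with or without the compressed arrays (1.67 ± 0.47, adjusted p = 0.26). At this time 0 of the 7 genes and 0.0226% of all probe sets passed in either direction, and 4 of the 7 (Nr0b2, Cyp7a1, Cyp8b1 and Cyp27a1) and 9.51% of all probe sets lay wholly above 0 h.

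At 24 h after 3 mg/kg, Nr0b2 read 9.82, 10.27 and 9.76, again above all 0 h arrays (1.21 ± 0.53, adjusted p = 0.21), and at 48 h it read 10.08, 9.32 and 8.87, which overlapped 0 h (0.68 ± 0.53, adjusted p = 0.36). Without the compressed arrays the changes were 1.38 ± 0.47 at 24 h (adjusted p = 0.20) and 0.85 ± 0.47 at 48 h (adjusted p = 0.27). Nr0b2 and Slc10a1 were the 2 genes wholly above 0 h at 24 h, where 7.36% of all probe sets were. None of the 7 genes passed there, where 0% of all probe sets did (6213 probe sets had an unadjusted p under 0.05).

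After 18 mg/kg, Nr0b2 scattered widely. It read 8.24, 9.57 and 8.52 at 0 h, 7.37, 10.15 and 9.02 at 4 h, 10.78, 8.91 and 9.7 at 24 h, and 9.21, 10.01 and 9.93 at 48 h. Later groups all overlapped 0 h, with changes of 0.07, 1.02 and 0.94 at 4, 24 and 48 h (SE 0.53 each). Without the compressed arrays the 4 h change was 0.81 ± 0.47 (adjusted p = 0.96). At 4 h all arrays of 18 mg/kg lay below all arrays of 3 mg/kg, by a log2 difference of -1.39 ± 0.53 (adjusted p = 0.50), and of -0.65 ± 0.47 (adjusted p = 0.83) without the compressed array at 7.37. Among the 7 genes only Nr0b2 was wholly below at 4 h, and 8.1% of all probe sets were.

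Nr1h4, the bile acid receptor FXR, read 10.79, 10.49 and 10.73 at 48 h after 3 mg/kg, against 9.74, 9.43 and 10.55 at 0 h. The groups overlapped, and the change of 0.76 ± 0.28 did not pass (adjusted p = 0.079), nor did 0.52 ± 0.23 (adjusted p = 0.16) without the compressed arrays. At 4 h it read 10.53, 10.59 and 10.46 and at 24 h 10.97, 10.34 and 10.55, changes of 0.38 ± 0.23 and 0.47 ± 0.23 without the compressed arrays. In the 18 mg/kg arm the changes from 0 h lay between -0.35 and 0.25 (SE 0.28), and the lowest value of that arm, 9.52, is the compressed array.

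The doses were set against each other at each time. At 0 h, 0 of 7 genes and 0% of all probe sets passed (6658 had an unadjusted p under 0.05), and Cyp8b1 and Cyp27a1 lay wholly above in the 18 mg/kg arrays, as did 8.41% of all probe sets. Cyp8b1 differed by 0.50 ± 0.29 (adjusted p = 0.42) without the compressed arrays. At 4 h no gene passed and 0% of all probe sets did (3040 had an unadjusted p under 0.05). At 24 h no gene passed, against 0.087% of all probe sets. Cyp7a1 was then wholly below in the 18 mg/kg arrays (3.76% of all probe sets) and Baat wholly above, by 0.14 ± 0.27 (5.22% of all probe sets). At 48 h no gene passed, against 0.029%, and every gene overlapped between doses, where 9.34% of all probe sets lay wholly above and 6.79% wholly below. When the F test asked whether time courses depended on dose, no gene of the 7 passed (smallest adjusted p = 0.51), against 0.00966% of all probe sets, and in that over all 8 groups none passed against 0.213%.

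The remaining contrasts gave no calls either. In the 18 mg/kg arm, 0 of 7 genes passed at 4, 24 and 48 h against 0 h, where 0.0258%, 0% and 0.0966% of all probe sets did, and every gene overlapped its 0 h group. Of all probe sets, 7.04%, 5.53% and 5.52% lay wholly above 0 h at these times and 4.33%, 4.21% and 4.02% wholly below. Between 24 h and 4 h no gene passed in the 18 mg/kg arm (0.00322% of all probe sets) or in the 3 mg/kg arm (0.00966%). Baat lay wholly above at 24 h in the 18 mg/kg arm, as did 3.36% of all probe sets. In the 3 mg/kg arm Slc10a1 lay wholly above (7.13%) and Cyp7a1 and Cyp8b1 wholly below (10.1%).

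The genes differed in how far they followed the compressed arrays. In the compressed 0 h array of 3 mg/kg, the departure from the mean of the other arrays of the group was -2.725 log2 units for Slc10a1, -2.077 for Cyp27a1, -2.038 for Cyp8b1, -1.007 for Cyp7a1 and 0.529 for Nr0b2. The range from the 10th to the 90th percentile of the bright probe sets in that array was -2.39 to 0.101, so Slc10a1 lay outside it on the low side and Nr0b2 on the high side. In the compressed 4 h array of 18 mg/kg the range was -3.773 to -0.104, and all 7 genes lay inside it. Leaving out both arrays lowered the within-group SD to 0.22 for Slc10a1, against 0.63 over all 24 arrays, and to 0.34 for Cyp8b1, against 0.74. For Cyp7a1 it was 0.49, against 0.52, and for Nr0b2 0.60, against 0.73. The median probe set stood at 0.25, against 0.33.

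**Figure D3:**
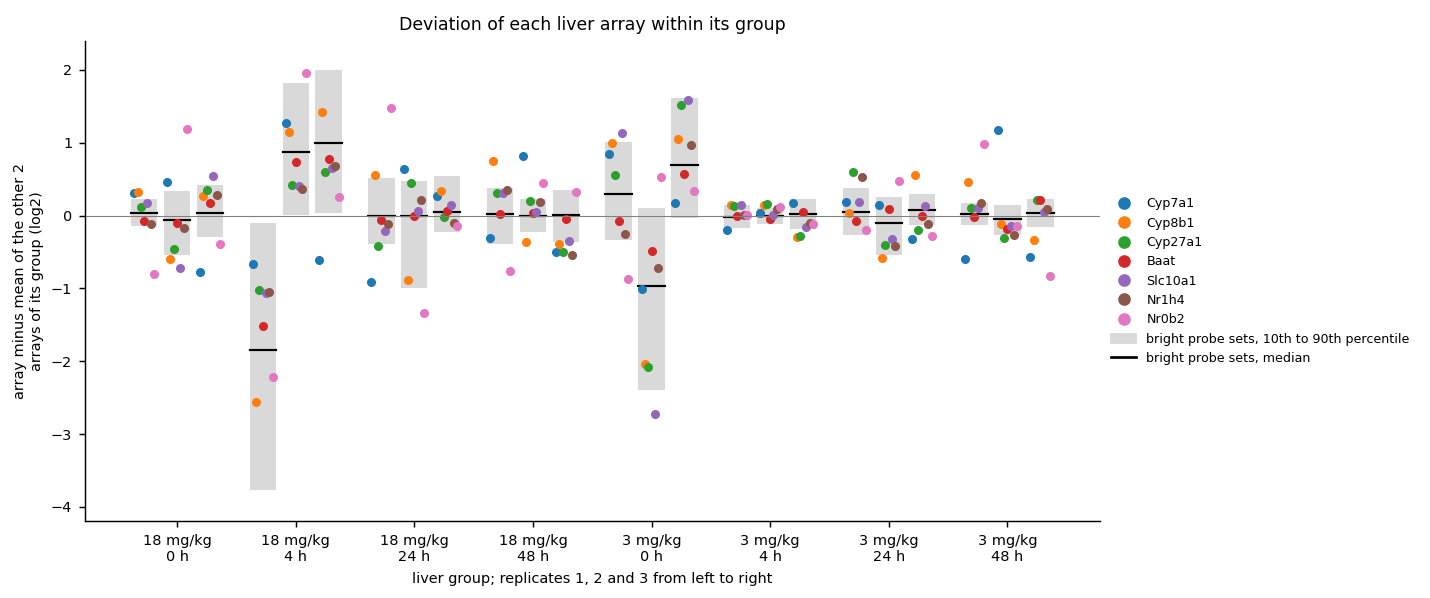
Departure of each liver array from the mean of the other arrays of its group (log2, vertical axis), for the 8 groups with replicates 1, 2 and 3 from left to right (horizontal axis); grey bars span the 10th to 90th percentile and black lines the median of 2295 bright probe sets, and coloured points are the 7 genes. The medians of -1.849 and -0.971 mark the 2 compressed arrays, and every gene except Baat falls outside the grey bar in some of the other arrays.

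Across the 24 liver arrays Cyp27a1 and Slc10a1 had a Pearson r of 0.94, and 0.79 over the 22 arrays without the compressed ones. Nr1h4 followed both, with r of 0.82 and 0.81 over 24 arrays and 0.75 and 0.72 over 22. Cyp7a1 had r between 0 and 0.18 against the other 6 genes over 24 arrays, and -0.55 against Slc10a1 over 22. Within groups, over all 24 arrays, its r was positive, between 0.09 and 0.37 against the other 6 genes, and 0.35 with Slc10a1. These within-group values include the compressed arrays and were not computed over the 22. In the compressed 0 h array of 3 mg/kg, Cyp7a1 departed by -1.007 and Slc10a1 by -2.725. In that of 18 mg/kg at 4 h the departures were -0.66 and -1.063. Nr0b2 was also low over 24 arrays with Cyp27a1 (0.20) and Slc10a1 (0.19). Nr0b2 and Cyp7a1 had an r of 0.18. These values describe arrays that share their normalisation and groups, and no test is attached to them.

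The genes whose pattern over the 24 arrays was most like each of the 7 were taken from 9955 genes with a mean of at least 6. Cyp7a1 was most like Bcl6, a transcriptional repressor (r 0.72), Cmss1 (0.68) and Nrros (0.66), and Nr0b2 most like Mapk8ip1 (0.80), Scyl2 (0.80) and Tada2a (0.79). Slc10a1 reached 0.99 with Cyp4f1, Ndufb6 and Bzw1, and Cyp27a1 reached 0.98 with Pals2 and 0.97 with Lars1 and Degs1. Cyp8b1 was most like Cdo1 (0.91), Klf9 (0.90) and Nop53 (0.90), and Nr1h4 reached 0.94 with Vta1, Stoml2 and Fabp12. Baat reached 0.98 with Ttr, Cox7c and Txn1, with r between 0.68 and 0.73 over the 22 arrays. Over the same 22, r was 0.91 to 0.96 for Slc10a1, 0.91 to 0.95 for Cyp27a1 and 0.84 to 0.87 for Nr1h4. It was 0.72 to 0.84 for Cyp8b1, 0.70 to 0.72 for Nr0b2 and 0.65 to 0.74 for Cyp7a1.

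The wider pathway was taken in the same comparison, 48 h against 0 h after 3 mg/kg. Of 20 measured genes on the list of synthesis and conjugation enzymes, 4 were higher and 0 lower. Of all probe sets 6% passed as higher and 9.34% in either direction. The higher genes were Cyp27a1, Acox2, which shortens the side chain in peroxisomes (2.32 ± 0.67, adjusted p = 0.038), Hsd17b4, the next peroxisomal enzyme (1.63 ± 0.49, adjusted p = 0.044), and Acot12, a cytosolic thioesterase that cleaves acetyl-CoA (1.70 ± 0.36, adjusted p = 0.023). Acot12 is counted because the list holds it, and its acetyl-CoA reaction is not a step of bile acid synthesis. Among 15 transporters and associated carriers 4 were higher and 0 lower. They were Slc10a1, Slco1a1, an organic anion uptake carrier (1.30 ± 0.41, adjusted p = 0.05 after rounding), Abcb4, the phospholipid exporter of the canalicular membrane (1.5 ± 0.42, adjusted p = 0.035), and Abcg5, part of the sterol exporter (2.07 ± 0.52, adjusted p = 0.027). None of the 6 calls other than Cyp27a1 and Slc10a1 held in every fit that left out 1 array of the contrast. The highest adjusted p in those fits was 0.24 for Acox2, 0.35 for Hsd17b4, 0.16 for Acot12, 0.34 for Slco1a1, 0.28 for Abcb4 and 0.19 for Abcg5. Of 18 regulators 0 passed, the smallest adjusted p being 0.079 for Nr1h4. The median log2 change was 0.41 for the enzymes, 0.80 for the transporters and 0.11 for the regulators, beside 0.049 for all genes. Without the compressed arrays the list medians were 0.16, 0.69 and -0.1 in that order, and that of all genes was not computed.

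Without the compressed arrays the enzyme list had 2 members higher, Acot12 (1.42 ± 0.37, adjusted p = 0.04) and Akr1c14, a hydroxysteroid dehydrogenase (0.82 ± 0.22, adjusted p = 0.045). The transporter list then had 3 higher, Abcb11, the bile salt export pump (1.16 ± 0.25, adjusted p = 0.031), Abcg5 (1.76 ± 0.46, adjusted p = 0.042) and Ephx1, an epoxide hydrolase that has been studied as a bile acid carrier (1.70 ± 0.36, adjusted p = 0.031). Acot12 and Abcg5 passed in both fits, and 4.42% of all probe sets passed over these 22 arrays. In the other 5 comparisons with 0 h, and in those between doses, 0 of the 53 pathway genes passed with either set of arrays.

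**Figure D4:**
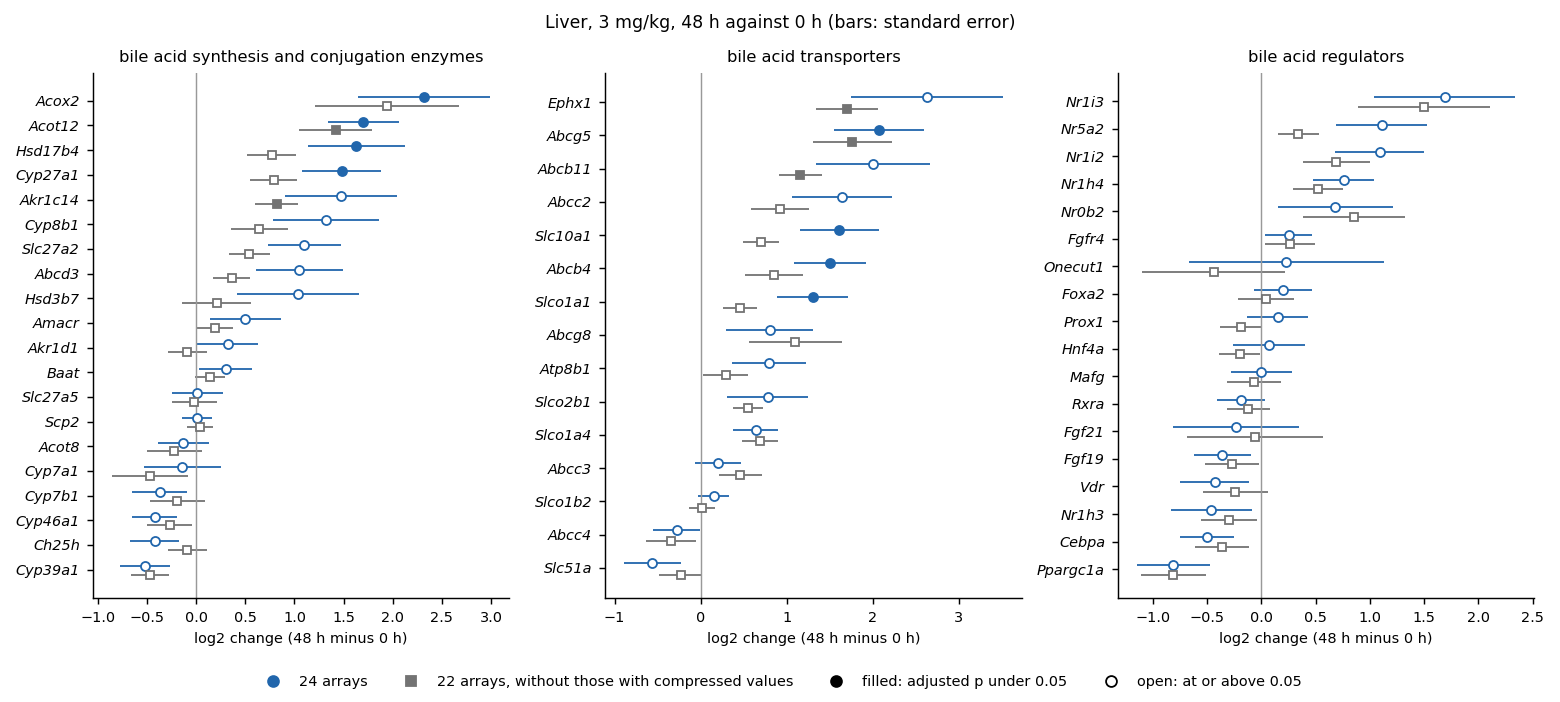
Log2 change at 48 h against 0 h after 3 mg/kg (horizontal axis) for the genes of 3 lists, synthesis and conjugation enzymes, transporters and regulators; blue circles use 24 arrays, grey squares 22, filled symbols have an adjusted p under 0.05 and bars are standard errors. Among the enzymes 4 circles and 2 squares are filled, among the transporters 4 and 3, and among the regulators none.

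Some markers of other liver cells also passed in that comparison, where 6% of all probe sets passed as higher and 9.34% in either direction. Of 5 Kupffer cell markers 2 passed as higher, Cd68 (1.79 ± 0.49) and Csf1r (1.32 ± 0.35). The mean of that list ranged from 9.58 to 9.80 at 48 h, against 8.25 to 9.33 at 0 h, with 8.25 in the compressed array. It was 9.43 to 9.81 at 0 h in the 18 mg/kg arm. In 1 of 7 stellate cell markers (Lrat, 1.5 ± 0.43), 1 of 5 endothelial markers (Kdr, 0.87 ± 0.24) and 1 of 8 cholangiocyte markers (Epcam, 1.62 ± 0.40) the change also passed, upward. Hepatocyte markers had 0 of 6 past the threshold, with a list mean of 13.43 to 13.45 at 48 h, against 12.2 to 13.35 at 0 h. The acute phase gene Hamp (1.93 ± 0.36) and the clock gene Bmal1 (2.14 ± 0.58) rose as well, 1 of 12 and 1 of 16 in their lists, and 0 of 9 fasting genes passed. Without the compressed arrays 1 Kupffer cell, 1 endothelial, 0 stellate cell, 0 cholangiocyte, 0 clock and 3 acute phase genes passed, all higher. In that fit 4.42% of all probe sets passed in either direction. Of 7 pancreas, 3 intestine, 2 erythroid and 4 brain markers 0 passed with either set of arrays. The part of these lists in the bile acid results was not tested.

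At 4 h 3 of 16 clock genes passed after 18 mg/kg and 4 of 16 after 3 mg/kg, against 0.0258% and 0.0226% of all probe sets. No other list held a call with all arrays. After 18 mg/kg, Per3 rose by 1.84 ± 0.25 (adjusted p = 0.0071) and Nr1d1, the repressor REV-ERBα, by 3.15 ± 0.50 (adjusted p = 0.016), and Cry1 had a change of -2.01 ± 0.28 (adjusted p = 0.0071). After 3 mg/kg, Per3 rose by 1.89 ± 0.25 (adjusted p = 0.0061), Nr1d1 by 3.21 ± 0.50 and Nr1d2 by 2.91 ± 0.45 (adjusted p = 0.011 each), and Cry1 had a change of -1.77 ± 0.28 (adjusted p = 0.014). Without the compressed arrays 5 clock genes passed after 18 mg/kg, with Dbp (2.35 ± 0.35) and Nr1d2 (2.56 ± 0.42) added, as did 1 of 9 fasting genes, Cpt1a (1.42 ± 0.24, adjusted p = 0.019), and 3 clock genes passed after 3 mg/kg, where the adjusted p of Cry1 was 0.056. Nr1d1 read 7.6, 9.19 and 8.97 at 4 h after 18 mg/kg, against 5.16, 5.84 and 5.3 at 0 h, and its lowest 4 h value is from the compressed array. After 3 mg/kg it read 9.14, 9.19 and 8.81 at 4 h, against 5.48, 5.62 and 6.41 at 0 h. In both arms every 4 h array lay above every 0 h array for Nr1d1. Nr0b2 and Cyp7a1 lay wholly above 0 h at 4 h after 3 mg/kg and overlapped it after 18 mg/kg. Without the compressed arrays the 4 h change of Nr0b2 was 0.81 ± 0.47 after 18 mg/kg and 1.67 ± 0.47 after 3 mg/kg. That of Cyp7a1 was 0.40 ± 0.39 after 18 mg/kg and 0.44 ± 0.39 after 3 mg/kg. Bile acid synthesis follows a daily rhythm in rodents, and the part of clock time in the 4 h values was not tested.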

How the data were processed

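Biotin-labelled RNA from rat liver and cortex was hybridised to Affymetrix rat arrays, and the authors deposited log2 values, made with RMA and Partek per the submitters' processing notes, which give no version or setting. RMA corrects background, normalises between arrays and summarises probes, which can reduce changes shared by most transcripts. The deposited liver arrays still differed in SD (1.389 to 2.086) and in median (6.071 to 6.499). A genome build is not given in the sources used here. The deposited log2 values were used without further scaling. Array means lay between 6.739 and 6.74, the number of arrays limits precision, and dim probe sets were kept.

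Of 31099 probe sets, 57 controls were left out and 31042 tested with limma 3.58.1 under R 4.3.3. The model had group means for 8 liver groups (24 arrays, 16 residual degrees of freedom), 12 contrasts and 2 F tests. Tests were two-sided, with Benjamini-Hochberg adjustment within a contrast over all probe sets and a threshold of 0.05. Changes carry the model's standard error and group means their SD. The brightest probe set in liver among those of a single symbol stood for a gene. The fit was tested on simulated data. All 7 genes are named, with pathway genes past the threshold or with the smallest p, up to 4 clock, fasting or acute phase genes per contrast, and the 3 most alike genes each. The genes and lists were chosen with earlier results of these data known. Alternatives covered normalisation, dim probe sets, array weights, variance moderation, a replicate block, covariates, pooled 0 h groups and left-out arrays. Same-numbered arrays had a median r of 0.006 over 84 pairs (-0.52 to 0.61, 23 above 0.1), against 0.0041 over 168 pairs of different number. The main fit did not pair arrays by number, and these values cannot show whether some arrays shared a batch. Promoter sequences came from RefSeq (GRCr8).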

Additional observations from a re-analysis of the deposited data

Results flagged for a closer look

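Measured from the mean of their own 0 h group, all 3 arrays of 18 mg/kg lay below it and all 3 arrays of 3 mg/kg above it for Cyp8b1 at 48 h and for Baat at 4 and 48 h. The change of Cyp8b1 after 18 mg/kg minus that after 3 mg/kg was -1.90 ± 0.76 at 48 h (limma adjusted p = 0.22), and -1.22 ± 0.39 (adjusted p = 0.13) without the 2 compressed arrays. For Baat it was -0.88 ± 0.39 at 4 h (adjusted p = 0.27) and -0.34 ± 0.39 at 48 h (adjusted p = 0.63). Without the 2 compressed arrays the values for Baat were -0.21 ± 0.21 at 4 h (adjusted p = 0.99) and -0.17 ± 0.20 at 48 h (adjusted p = 0.67).

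Liver genes of bile acid metabolism were seen in a few of the 18 cortex arrays taken at 4, 24 and 48 h, which no comparison above uses. Slc10a1 reached 8.47, against 3.7 to 4.49 in the 6 cortex arrays of 0 h, and was more than 1 log2 unit above their highest value in 4 arrays. Baat reached 8.92, against 4.75 to 5.67 at 0 h, also in 4 arrays. Cyp8b1 reached 6.43 in 1 array, against 4.72 to 4.93 at 0 h. The mean of the 6 hepatocyte markers was 10.23 to 10.93 in the 4 arrays high in Slc10a1 and Baat, 6.93 to 9.11 in the other 14 later arrays and 7.01 to 8.45 at 0 h, and its part in these values was not tested.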

How the results depend on the processing

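At 48 h after 3 mg/kg, 2 genes of the 7 passed. The count was 0 after quantile normalisation, without the 2 compressed arrays, with both 0 h groups pooled and with the SD of each array as a covariate (chosen after seeing the data), and it was 6 with array weights and 6 with the actin gap as a covariate. Cyp27a1 and Slc10a1 then had changes of 0.98 and 1.08 (adjusted p = 0.051 and 0.064) after quantile normalisation, 0.79 and 0.96 (0.45 each) with pooled 0 h groups, and 0.69 each (0.23 and 0.30) with the array SD. Where 0 genes passed, array weights gave 5 at 4 h and 4 at 24 h after 3 mg/kg, 1 each at 4 h and 24 h after 18 mg/kg, 1 between 24 and 4 h in that arm, 5 between doses at 0 h, 3 in the dose F test and 6 in the F test over all groups. The iterations for the weights stopped before converging (weights 0.0545 to 3.96). Of all 31042 probe sets, array weights called 9985 at 4 h, 10764 at 24 h and 13240 at 48 h after 3 mg/kg. They called 542 at 4 h and 98 at 24 h after 18 mg/kg, and 166 between 24 and 4 h in that arm. Between doses at 0 h they called 11915, in the dose F test 9374 and in the F test over all groups 13013. The actin gap gave 3 at 4 h, 6 at 24 h after 3 mg/kg, 5 between doses at 0 h and 2 in the F test over all groups. The compressed array of 18 mg/kg lay far from the others in that gap, at 0.617, against 2.756 to 4.379 in the 22 arrays without compressed values. Leaving out 1 array at a time gave 0 to 3 at 4 h and at 24 h, 0 to 4 at 48 h after 3 mg/kg, 0 to 3 between doses at 0 h and 0 to 1 in the F test over all groups. With a replicate block the count at 48 h after 3 mg/kg was 2 and no member count changed. Each of the 7 genes had 1 probe set of its own symbol, so averaging probe sets gave the same value. At 48 h after 3 mg/kg the probe sets called ranged between 0 and 14423 over all settings, against 2898. In settings other than array weights, up to 1809 probe sets passed at 4 h and up to 9781 at 24 h after 3 mg/kg. Up to 8659 did between doses at 0 h and up to 3482 in the F test over all groups. Of 1386 recomputed changes of single genes, 0 passed with the opposite sign, 50 newly passed, 16 no longer passed, and 119 below the threshold changed sign.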
